A study of Mus musculus with 42 samples.

Results

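The transcription factors that set and keep macrophage identity were followed in bone marrow-derived macrophages (BMDMs), which are grown from mouse bone marrow in culture. The 9 genes were Spi1, Cebpa, Cebpb, Cebpd, Maf, Hhex, Runx1, Id2 and Bhlhe40. They were taken by symbol from a count table of 37310 gene identifiers, of which 32620 had a symbol. All 9 were found, and all 9 were among the 11624 genes with enough counts to be tested. The cells came from mice lacking Irf5, an interferon regulatory factor gene, in myeloid cells (labelled KO) or from wild-type littermates (labelled WT). Deletion relied on floxed Irf5 and LysM-Cre, a Cre recombinase placed in the Lyz2 gene, which is expressed in macrophages and granulocytes. For each label, cells were collected as Control at 0 h, 2 h and 24 h, after palmitate for 2 h and 24 h, and after lipopolysaccharide (LPS) for 2 h and 24 h. Palmitate is a saturated fatty acid that was bound to albumin, and LPS is the bacterial ligand of the receptor TLR4. Each of the 14 groups held 3 libraries, 42 in all, from male mice. The labels give no age and do not say which mouse each library came from, so p-values measure the spread between these libraries.

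Spi1 encodes PU.1, an ETS factor without which macrophages do not form. Runx1 acts upstream of it in blood development. The C/EBP factors are leucine zipper proteins: C/EBPα drives myeloid progenitors towards the granulocyte and macrophage lines, while C/EBPβ and C/EBPδ are known as factors of the inflammatory response. c-MAF (Maf) restrains self-renewal and drives Il10, Hhex is a homeobox repressor of haematopoietic progenitors, Id2 blocks E proteins by pairing with them, and Bhlhe40 is a repressor that limits Il10. PU.1 and C/EBP proteins occupy macrophage enhancers together, which gives signal-dependent factors their place to bind.

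Libraries held 2848793 to 7743442 counts, with a median of 5625399. The shallowest library was KO LPS 2 h library 1. Irf5 went against the KO label: the libraries labelled WT held 210 to 389 CPM (library-scaled counts, by TMM) with a median of 250, and those labelled KO held 267 to 430 with a median of 294. Counts cover the whole gene, so the loss of single exons cannot be seen here, and every genotype direction below refers to libraries labelled KO or WT. Lyz2, the site of the Cre, was lower under the KO label, at 4680 to 8770 CPM with a median of 5580 against 8030 to 14600 with a median of 10200. The treatments left their usual marks. Tnf, a cytokine gene induced by TLR4, rose by 4.77 (log2) with LPS at 2 h in WT, and Plin2, a lipid droplet gene, rose by 1.99 with palmitate at 24 h in WT. The macrophage label was borne out by 8 of 8 macrophage markers detected, at a summed 10100 to 22900 CPM of the library total. Markers of T or NK cells summed to at most 2.34 CPM and those of erythroid cells to at most 0.378. Granulocyte precursor markers (19.3 to 209 CPM) and fibroblast markers (0 to 320 CPM) varied more, and their values stand beside the genotype results. In such bulk samples, fewer cells of a type and less RNA per cell cannot be told apart.

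Cebpb was the most abundant of the 9 messages per unit of length at Control 0 h. Over both labels, its level was 173 ± 21.1 CPM per kilobase of exon (SD, n = 6). Cebpa followed at 122 ± 12.0 and Spi1 at 97.6 ± 6.38. The ranges of these neighbours did not overlap. Maf (46.2 ± 8.20) and Id2 (42.6 ± 7.93) overlapped, and formed a middle tier. Runx1 stood at 12.3 ± 0.867. Hhex (8.70 ± 1.17), Bhlhe40 (8.23 ± 1.13) and Cebpd (7.93 ± 1.59) overlapped in a low tier. This order depends on the exon model. With the longest annotated transcript as length, Spi1 came to 129 ± 8.45 and passed Cebpa at 123 ± 12.0, and Bhlhe40 (12.4 ± 1.70) passed Hhex (11.3 ± 1.51). Cebpb and Cebpd each share exon sequence with a gene on the other strand, 312 bases with Tmem189 and 562 bases with Spidr. Whether reads were counted by strand is not given in the sources used here, and these partners had medians of 401.5 and 111.5 counts against 2505 for Cebpb and 156 for Cebpd.

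The annotation places Spi1 (ENSMUSG00000002111) at chromosome 2, 91082390 to 91115756, and Cebpb (ENSMUSG00000056501) at chromosome 2, 167688915 to 167690418, both on the forward strand of GRCm38. Cebpa (ENSMUSG00000034957) lies at chromosome 7, 35119293 to 35121928, Cebpd (ENSMUSG00000071637) at chromosome 16, 15887286 to 15891031, Hhex (ENSMUSG00000024986) at chromosome 19, 37434810 to 37440731, and Bhlhe40 (ENSMUSG00000030103) at chromosome 6, 108660629 to 108666925, also forward. Maf (ENSMUSG00000055435) lies at chromosome 8, 115682942 to 115707794, Runx1 (ENSMUSG00000022952) at chromosome 16, 92601466 to 92826149, and Id2 (ENSMUSG00000020644) at chromosome 12, 25093799 to 25097140, on the reverse strand. All 9 are protein-coding.

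Promoters from RefSeq (GRCm38.p6) matched 5 of the 9 genes, Cebpa, Cebpb, Hhex, Id2 and Runx1. Of these, 4 are shown because they moved in opposite directions with LPS: Cebpb rose, while Cebpa, Hhex and Id2 fell. Each run holds the 250 bases before the start of transcription, 5′ to 3′ on the gene's strand, from chr7:35119043-35119292 (forward) for Cebpa, chr2:167688665-167688914 (forward) for Cebpb, chr19:37434591-37434840 (forward) for Hhex and chr12:25096093-25096342 (reverse) for Id2. The starts are those of RefSeq. The whole Id2 window and the last bases of the Hhex window lie inside the gene spans given above, which come from another annotation. Capitals mark matches to the 12 motifs searched on both strands.
Cebpa: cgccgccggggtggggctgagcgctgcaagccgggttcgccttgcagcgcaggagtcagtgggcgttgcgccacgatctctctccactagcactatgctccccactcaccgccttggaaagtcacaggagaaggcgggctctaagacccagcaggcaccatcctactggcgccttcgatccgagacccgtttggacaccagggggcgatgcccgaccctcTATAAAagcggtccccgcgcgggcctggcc
Cebpb: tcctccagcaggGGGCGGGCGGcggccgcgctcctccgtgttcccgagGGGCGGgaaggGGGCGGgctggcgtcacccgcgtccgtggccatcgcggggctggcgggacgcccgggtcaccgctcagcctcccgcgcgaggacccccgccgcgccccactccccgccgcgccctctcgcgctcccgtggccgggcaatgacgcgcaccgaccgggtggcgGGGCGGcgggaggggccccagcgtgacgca
Hhex: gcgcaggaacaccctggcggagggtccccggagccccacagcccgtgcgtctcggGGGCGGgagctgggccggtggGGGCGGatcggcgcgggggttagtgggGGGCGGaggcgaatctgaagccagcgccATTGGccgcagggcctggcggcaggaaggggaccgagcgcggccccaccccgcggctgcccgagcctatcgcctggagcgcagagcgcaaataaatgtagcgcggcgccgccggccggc
Id2: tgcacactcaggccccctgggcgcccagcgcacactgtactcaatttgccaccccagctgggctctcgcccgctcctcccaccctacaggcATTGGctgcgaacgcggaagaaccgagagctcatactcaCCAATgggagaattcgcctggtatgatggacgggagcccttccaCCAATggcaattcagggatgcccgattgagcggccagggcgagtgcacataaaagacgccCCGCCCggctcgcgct
The Cebpa window held 1 match, a TATA box (TATAAA) 30 bases before the start, a motif found in 12.4% of the 32851 promoter windows of the same length. The Cebpb window was 81.6% G or C and held 5 GC boxes (GGGCGG), 2 of which overlap each other. Hhex held 3 GC boxes and 1 CCAAT box (CCAAT), and Id2 held 3 CCAAT boxes and 1 GC box. These motifs occurred in 32.7% (GC box) and 33.8% (CCAAT box) of all windows. The Runx1 windows held CCAAT boxes and an E-box (CACGTG, 6.02% of all windows). The motifs for NF-κB (GGGANNTTC, 3.23%), C/EBP (TTNNGCAA, 9.56%), PU.1 (GAGGAAG, 10.6%), AP-1 (TGANTCA, 6.75%), CRE (TGACGTCA, 1.55%), STAT (TTCNNNGAA, 7.02%), IRF (GAAANNGAA, 7.13%) and RUNX (TGTGGT, 14%) matched in none of the members' windows. A match is a description of the letters and not of a binding site.

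The first question was how the factors respond to an inflammatory signal. LPS raised some of them and lowered others, and every factor called under both labels moved the same way in both. At 2 h, Spi1, Cebpb, Cebpd and Runx1 rose, while Cebpa, Maf, Hhex and Bhlhe40 fell. By the edgeR quasi-likelihood test, 8 of 9 passed in WT and 9 of 9 in KO, where Id2 also fell. Among all genes tested, 23.1% passed in WT and 23.9% in KO. At 24 h, 8 of 9 passed under each label, against 39.5% of all genes in WT and 40.9% in KO. Those that rose were Spi1, Cebpb, Cebpd and Maf, and those that fell were Cebpa, Hhex, Id2 and Bhlhe40. The median change of the 9 genes stayed near that of all genes, at -0.15 against -0.0094 at 2 h and 0.13 against -0.0113 at 24 h in WT, since rises and falls balanced. Under each label, LPS and Control libraries did not overlap for 9 of 9 factors at 2 h and 8 of 9 at 24 h. Among all genes, 35.2% (WT) and 34.1% (KO) did not overlap at 2 h, and 48.1% and 50.2% at 24 h. LPS and palmitate at a given time were compared with the same Control libraries.

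**Figure D1:**
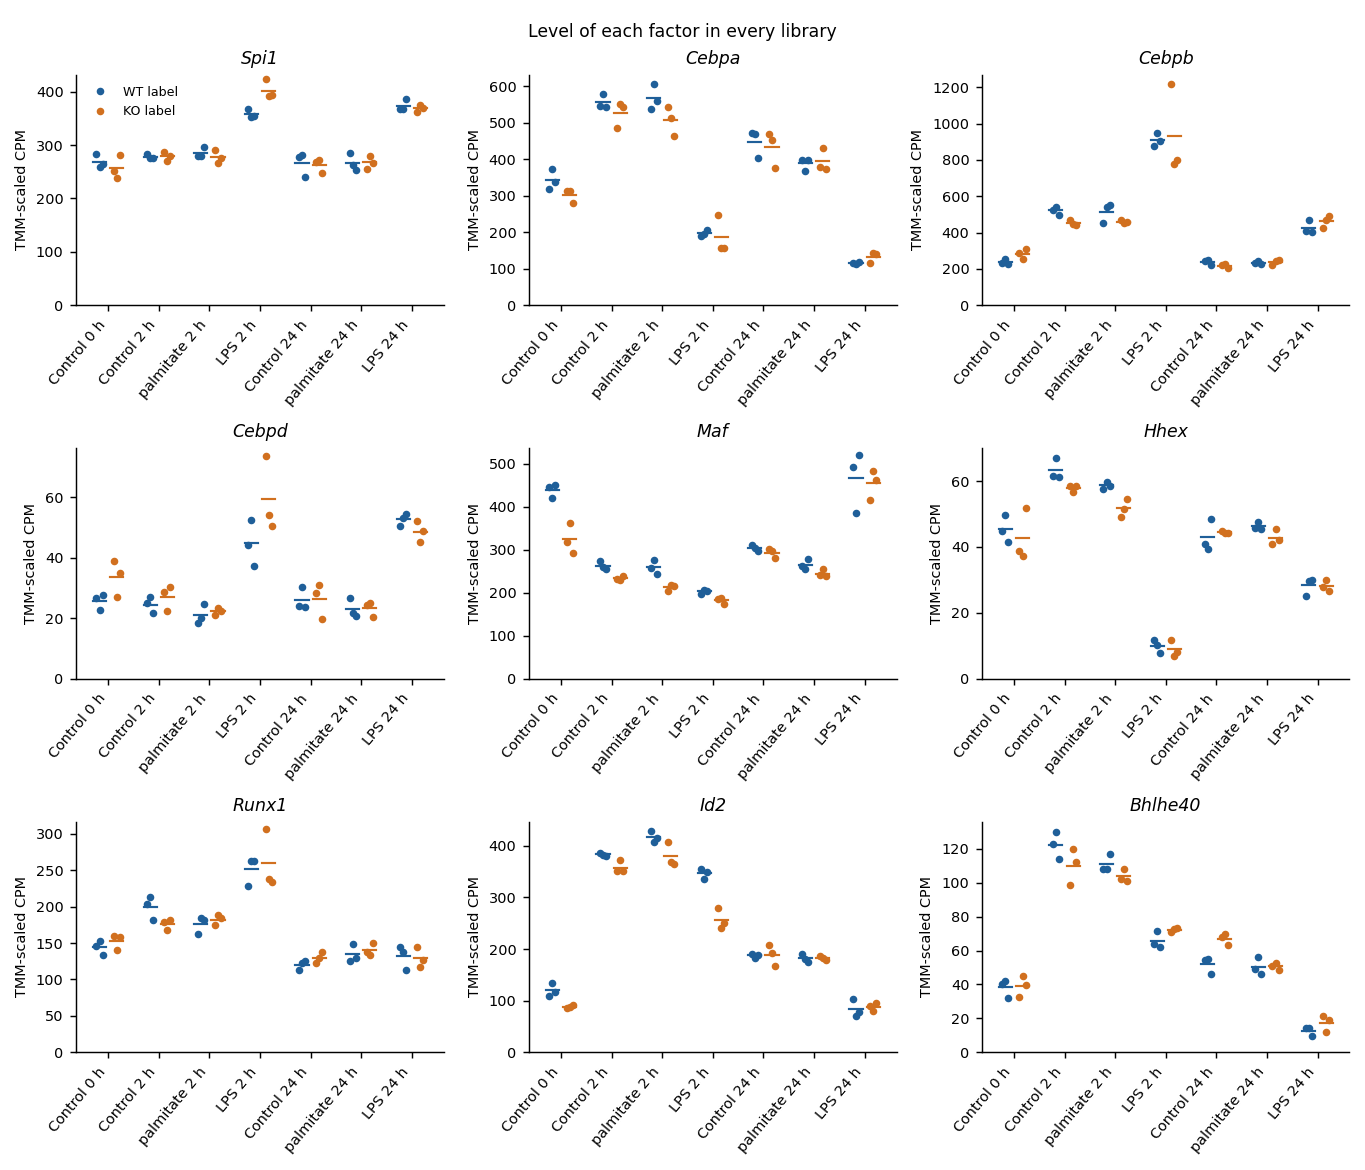
TMM-scaled CPM (vertical axes, from 0) of each factor in every library, by condition (horizontal axes) for WT (blue) and KO (orange) labels. Points are libraries and bars are means of 3. Hhex falls to 6.89 to 11.8 CPM in the 6 LPS 2 h libraries, and Cebpa is lowest in the LPS 24 h libraries.

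PU.1 rose modestly. In WT, Spi1 stood at 284, 275 and 275 CPM in Control 2 h and at 367, 352 and 355 in LPS 2 h. The groups did not overlap, and the log2 change was 0.36 ± 0.06 (SE, adjusted p = 6.04e-06). In KO, 287, 271 and 280 CPM became 423, 392 and 393, a change of 0.52 ± 0.06 (adjusted p = 1.09e-09). The rise was as large at 24 h, at 0.49 ± 0.06 under both labels (adjusted p = 2.84e-09 in WT and 3.07e-09 in KO). Spi1 was also the steadiest of the 9 genes, with a ratio of only 1.56 between its highest and lowest group means. Among 11 other ETS genes tested, 6 rose and 0 fell at 2 h in WT, and 4 rose and 4 fell at 24 h. Ets2, a target of growth factor signalling, rose by 1.85 ± 0.12 (adjusted p = 6.66e-18) at 2 h. Spic, the factor of red pulp macrophages, rose by 2.20 ± 0.26 (adjusted p = 1.20e-09). In KO, 7 rose and 2 fell at 2 h.

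Textbook targets of PU.1 were counted at both times. At 2 h in WT, where 23.1% of all genes were called, 1 of 10 passed upward (Ncf4, an oxidase subunit, 0.34 ± 0.10, adjusted p = 0.00724) and 1 downward (Fcgr1, -0.47 ± 0.13, adjusted p = 0.00641). In KO, Ncf4 (0.40 ± 0.10, adjusted p = 0.00129) and Csf2ra (0.21 ± 0.08, adjusted p = 0.0458) rose. At 24 h, 7 rose and 2 fell under both labels, against 39.5% of all genes called in WT and 40.9% in KO. Fcgr1, the high-affinity IgG receptor, was then 3.46 ± 0.12 higher in WT (adjusted p = 9.96e-30), and Adgre1, which encodes F4/80, was 1.44 ± 0.05 higher (adjusted p = 7.03e-28). Cd68 and Tyrobp were the genes that fell, by 0.29 and 0.22 in WT.

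Runx1 was called at 2 h and not at 24 h. It stood at 203, 213 and 182 CPM in WT Control 2 h and at 228, 263 and 262 in LPS 2 h, a change of 0.34 ± 0.09 (adjusted p = 0.00277). In KO it went from 179, 168 and 182 to 307, 238 and 234, a change of 0.55 ± 0.09 (adjusted p = 2.20e-06). The highest value was in the shallow KO library 1. Without that library the KO change was 0.41 (adjusted p = 0.000339). At 24 h the changes were 0.13 (95% interval -0.06 to 0.31) in WT and 0.00 (-0.18 to 0.19) in KO. Of 4 RUNX relatives and partners tested, 2 fell at 24 h under each label, with Cbfa2t3, a corepressor, at -2.16 ± 0.53 in WT (adjusted p = 0.000717). Cbfa2t3 was scarce and uneven, at 0.739 ± 0.559 CPM (SD) with LPS and 3.76 ± 2.7 in Control.

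**Figure D2:**
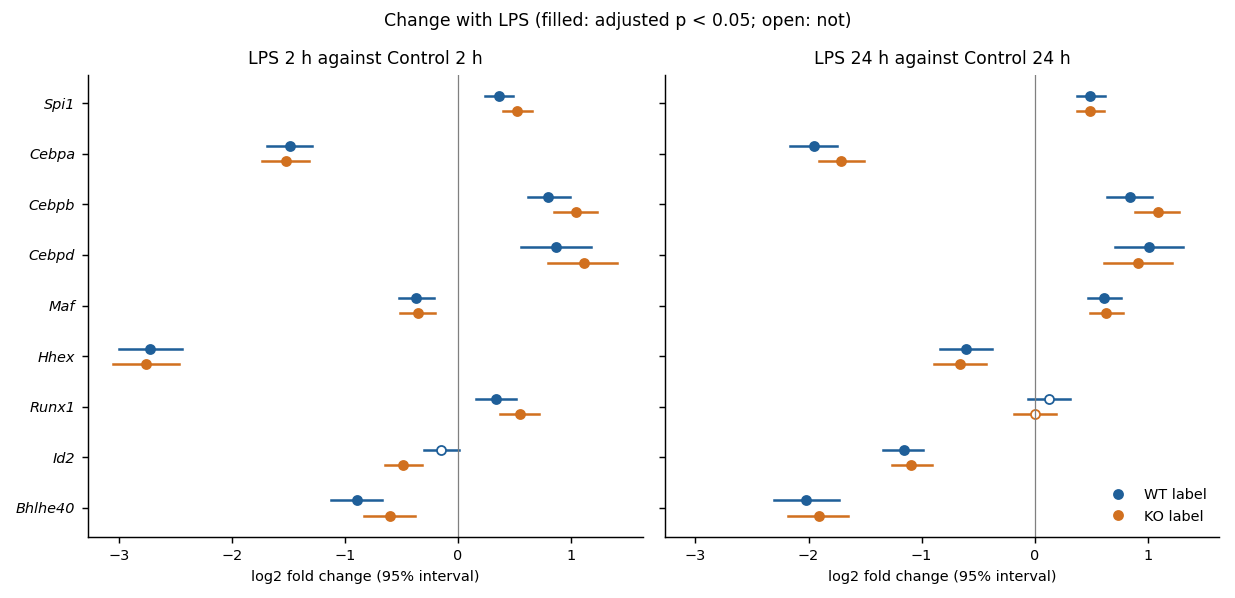
Log2 fold change with LPS against the Control of the same time (horizontal axis, 95% interval as line) for each factor at 2 h (left) and 24 h (right), WT in blue and KO in orange, filled where the adjusted p is under 0.05. Maf lies left of 0 at 2 h and right of it at 24 h, at -0.37 and 0.61 in WT.

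The C/EBP genes moved against each other. Cebpa fell from 546, 580 and 544 CPM in WT Control 2 h to 190, 196 and 206 in LPS 2 h, and from 472, 471 and 403 in Control 24 h to 117, 112 and 118 in LPS 24 h. No libraries overlapped, and the changes were -1.49 ± 0.10 (adjusted p = 8.52e-18) and -1.95 ± 0.10 (adjusted p = 4.43e-22). In KO, Control 2 h held 485, 552 and 544 CPM against 247, 157 and 157 in LPS 2 h, a change of -1.52 ± 0.10 (adjusted p = 5.87e-18). At 24 h, KO held 469, 454 and 376 against 115, 142 and 140, a change of -1.71 ± 0.10 (adjusted p = 4.60e-20). Cebpa was thus 2.81 to 3.87 times lower with LPS.

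Cebpb rose over the same hours. WT libraries held 527, 541 and 497 CPM in Control 2 h and 877, 946 and 907 in LPS 2 h, a change of 0.80 ± 0.09 (adjusted p = 8.23e-10). At 24 h, 245, 250 and 221 became 409, 468 and 403, a change of 0.84 ± 0.10 (adjusted p = 3.88e-10). The WT LPS 24 h libraries thus lay below those of WT Control 2 h. In KO the changes were 1.04 ± 0.09 (adjusted p = 4.31e-13) at 2 h and 1.09 ± 0.10 (adjusted p = 1.70e-13) at 24 h. The KO LPS 2 h libraries were uneven, at 1220, 777 and 802 CPM, the highest in library 1. Without it the 2 h change was 0.79 (adjusted p = 4.02e-12), and the KO response at 24 h exceeded that at 2 h by 0.30 (adjusted p = 0.0255), a difference of 0.05 (adjusted p = 0.818) with all libraries.

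Cebpd was the scarcest of the 3 and also rose. It stood at 25, 27 and 21.6 CPM in WT Control 2 h and at 44.4, 52.6 and 37.3 in LPS 2 h, a change of 0.87 ± 0.15 (adjusted p = 1.25e-05). At 24 h, 24.1, 30.2 and 23.9 became 50.7, 53.3 and 54.5, a change of 1.01 ± 0.15 (adjusted p = 1.33e-07). KO gave 1.11 ± 0.15 at 2 h and 0.91 ± 0.15 at 24 h (adjusted p = 4.02e-08 and 1.46e-06).

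The ratio of Cebpb to Cebpa was higher in every LPS library than in any other. Per kilobase, it was 1.64 ± 0.0481 (SD, n = 3) in WT Control 2 h and 8.08 ± 0.378 in WT LPS 2 h. KO gave 1.51 ± 0.161 and 8.76 ± 0.163. At 24 h, Control stood at 0.934 ± 0.0241 in WT and 0.886 ± 0.0617 in KO, and LPS at 6.47 ± 0.730 and 6.14 ± 0.309. No LPS library came below 5.82, and no other library came above 1.93. KO LPS 2 h library 1, high for both genes, did not stand apart in their ratio, which was 8.65 to 8.95 over the 3 libraries. As a share of the summed per-kilobase level of the 3 genes, Cebpa made up 37.4% in WT Control 2 h and 10.8% in LPS 2 h, and Cebpb 61.4% and 87.4%. The sum itself was 564 ± 22.1 CPM per kilobase in WT Control 2 h, 692 ± 25.3 in LPS 2 h, 336 ± 26.1 in Control 24 h and 342 ± 22.8 in LPS 24 h.

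**Figure D3:**
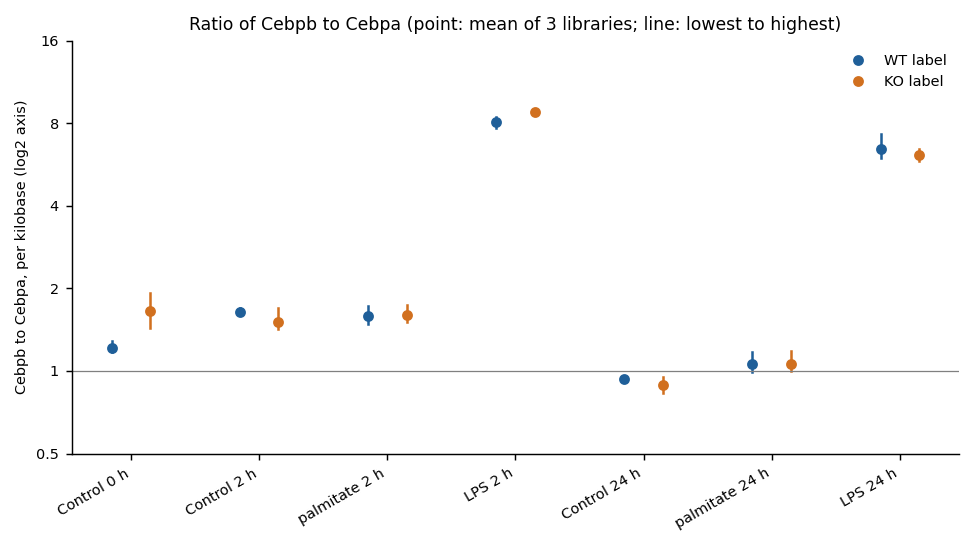
Ratio of Cebpb to Cebpa per kilobase of exon (vertical axis, log2 scale) by condition, with the mean of 3 libraries as a point and a line from lowest to highest, WT in blue and KO in orange. The LPS groups lie between 5.82 and 8.95 and all other groups between 0.828 and 1.93.

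Partners of the C/EBP factors were also moved by LPS. At 2 h in both labels, 3 of 5 tested rose (Trib1, Atf4, Batf) and 2 fell (Cebpg, Ddit3). Trib1, which brings C/EBPα protein to degradation, rose by 1.07 ± 0.11 (adjusted p = 1.67e-11) in WT. At 24 h Batf stood 2.60 ± 0.19 above Control (adjusted p = 1.63e-16), and Ddit3, which encodes CHOP, had turned to 1.33 ± 0.13 above it (adjusted p = 3.25e-12). Of 8 textbook targets of C/EBP factors tested, 4 rose and 0 fell at 2 h, and at 24 h 6 rose in both labels, with 1 lower in WT and 2 lower in KO. Saa3, an acute phase gene, rose by 1.99 ± 0.18 at 2 h and by 6.51 ± 0.16 at 24 h in WT (adjusted p = 2.27e-13 and 1.11e-34). Lcn2 rose by 5.88 ± 0.23 and Hp by 3.87 ± 0.22 at 24 h (adjusted p = 5.70e-27 and 4.81e-21). Ltf, the granule gene lactoferrin, fell by 2.16 at 24 h (adjusted p = 5.35e-06).

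Maf changed direction with time, against the Control of the same time. WT libraries held 274, 259 and 254 CPM in Control 2 h and 198, 206 and 204 in LPS 2 h, a change of -0.37 ± 0.08 (adjusted p = 0.000161). At 24 h they held 312, 305 and 297 in Control and 492, 386 and 519 in LPS, a change of 0.61 ± 0.07 (adjusted p = 7.11e-10). KO behaved alike in direction, with -0.35 ± 0.08 at 2 h (adjusted p = 0.00036) and 0.63 ± 0.07 at 24 h (adjusted p = 2.84e-10). The WT LPS 24 h libraries spanned those of WT Control 0 h (445, 420 and 451 CPM). In KO, LPS 24 h (416, 484 and 463) lay above Control 0 h (317, 362 and 292). The difference between the 24 h and 2 h responses was itself called, at 0.98 ± 0.11 in WT (adjusted p = 8.29e-11) and 0.99 ± 0.11 in KO (adjusted p = 9.50e-11). Across all genes, 32.6% were called for this difference in WT and 33.4% in KO, and 5 of the 9 factors were called under each label.

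Maff, which encodes a small MAF protein, rose by 4.07 ± 0.16 at 2 h in WT (adjusted p = 3.26e-27). Of 8 textbook targets of c-MAF, 1 rose and 2 fell at 2 h in WT, and Il10 was the gene that rose, by 4.01 ± 0.30 (adjusted p = 3.54e-16). In KO, 1 rose and 0 fell. At 24 h all 8 passed in both labels, 4 in each direction. Il10, C1qa, C1qb and C1qc, the last 3 encoding the chains of complement C1q, rose, and Mrc1 (the mannose receptor), Folr2, Gas6 and F13a1 fell, with C1qa at 1.00 ± 0.08 and Gas6 at -2.24 ± 0.09 in WT (adjusted p = 3.88e-15 and 1.41e-27).

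Hhex had the deepest early fall. It stood at 61.4, 67.0 and 61.3 CPM in WT Control 2 h and at 11.8, 10.1 and 7.80 in LPS 2 h, where the libraries held 33 to 49 counts. The change was -2.72 ± 0.14, a 6.59-fold drop (adjusted p = 1.14e-22). KO went from 58.6, 56.8 and 58.5 to 11.8, 6.89 and 8.22, a change of -2.76 ± 0.14 (adjusted p = 4.03e-22). By 24 h much of the gap had closed. WT held 41, 39.4 and 48.5 CPM in Control and 25.2, 29.8 and 30 in LPS, a change of -0.61 ± 0.11 (adjusted p = 1.53e-05), and KO changed by -0.66 ± 0.11 (adjusted p = 3.08e-06). The response at 24 h exceeded that at 2 h by 2.11 ± 0.18 in WT and 2.10 ± 0.19 in KO (adjusted p = 1.00e-13 and 3.33e-13).

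Id2 and Bhlhe40 took the opposite course, with a fall against the Control of the same time that deepened. At 2 h in WT, LPS means still stood above Control 0 h, at 347 against 120 CPM (Id2) and 65.7 against 38.2 (Bhlhe40). KO was alike, at 257 against 88.0 and 72.3 against 39.2. Id2 stood at 387, 383 and 381 CPM in WT Control 2 h and at 356, 335 and 349 in LPS 2 h. These groups did not overlap, but the change of -0.15 (95% interval -0.30 to 0.01) was not called (adjusted p = 0.193). In KO, 352, 372 and 351 CPM stood against 280, 241 and 250, a change of -0.49 ± 0.08 (adjusted p = 2.72e-06). The LPS effects of both labels differed by -0.34 (95% interval -0.57 to -0.11, unadjusted p = 0.00388), which did not pass adjustment over all genes (adjusted p = 0.376). At 24 h, WT went from 191, 183 and 189 to 103, 69.7 and 78.5, a change of -1.16 ± 0.09 (adjusted p = 2.75e-16), and KO changed by -1.09 ± 0.09 (adjusted p = 2.10e-15).

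Bhlhe40 stood at 123, 130 and 114 CPM in WT Control 2 h and at 63.7, 71.5 and 62.0 in LPS 2 h. In Control 24 h it stood at 54.5, 55.2 and 46.0, and in LPS 24 h at 14.5, 14.4 and 9.34, its lowest group mean in the series. The changes were -0.89 ± 0.11 (adjusted p = 5.72e-09) and -2.02 ± 0.14 (adjusted p = 6.11e-17), and in KO they were -0.60 ± 0.11 and -1.91 ± 0.13 (adjusted p = 2.48e-05 and 1.70e-17). The 24 h response was further below 0 than the 2 h response for both genes, by 1.02 (Id2) and 1.13 (Bhlhe40) in WT and by 0.60 and 1.31 in KO, all called. Cebpa in WT (-0.46, adjusted p = 0.00914) and Runx1 in KO (-0.54, adjusted p = 0.000661) were the remaining genes called for this difference.

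Messages of other ID and E proteins were lower too. At 2 h in WT, Id1 alone of 5 tested passed, at -3.16 ± 0.30 (adjusted p = 1.20e-12), and in KO Tcf3 passed with it. At 24 h 4 of 5 fell in both labels, with Id3 at -2.47 ± 0.19 and Tcf12, an E protein, at -0.87 ± 0.08 in WT (adjusted p = 1.70e-15 and 2.63e-13). Bhlhe41, the closest relative of Bhlhe40, fell by 0.47 ± 0.11 at 2 h and 0.61 ± 0.12 at 24 h in WT (adjusted p = 0.00104 and 2.18e-05). Among 14 other macrophage transcription factors tested, 6 rose and 2 fell at 2 h in WT, and 3 rose and 5 fell at 24 h. Tfec rose by 3.09 ± 0.18 and Zeb2 by 0.86 ± 0.05 at 2 h (adjusted p = 3.83e-20 and 1.54e-18). Irf8 fell by 0.96 ± 0.07 at 2 h (adjusted p = 1.72e-16), and at 24 h Nr1h3, the LXRα gene, stood 2.06 ± 0.12 higher and Pparg 2.15 ± 0.25 lower (adjusted p = 9.24e-20 and 3.36e-10).

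Time in culture without a stimulus moved the factors as well. Over both labels, 7 of 9 were called between Control 0 h and 2 h, against 16.7% of all genes, and 5 of 9 between 0 h and 24 h, against 16.5%. These Control libraries are also the reference of the LPS and palmitate comparisons above. Id2 rose most. It stood at 109, 134 and 117 CPM in WT Control 0 h, 85.0, 87.0 and 91.9 in KO Control 0 h, and between 351 and 387 in all 6 Control 2 h libraries. The change was 1.85 ± 0.06 (adjusted p = 5.91e-30), a 3.61-fold rise, and 0.87 ± 0.06 remained at 24 h (adjusted p = 7.64e-16).

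Bhlhe40 rose from 31.9 to 45.2 CPM at 0 h to 98.4 to 130 at 2 h, a change of 1.58 ± 0.08 (adjusted p = 8.25e-22), and was 0.60 ± 0.09 above 0 h at 24 h (adjusted p = 4.23e-07). Cebpb rose by 0.91 ± 0.07 at 2 h (adjusted p = 1.40e-15). At 24 h it stood at -0.19 ± 0.07 (adjusted p = 0.0611), which was called without KO Control 0 h library 2 (-0.22, adjusted p = 0.0332). Cebpa rose by 0.75 ± 0.07 and remained 0.45 ± 0.07 higher at 24 h (adjusted p = 5.46e-13 and 1.21e-06). Hhex (0.46 ± 0.07) and Runx1 (0.34 ± 0.06) rose at 2 h as well (adjusted p = 2.67e-06 and 4.23e-05). Runx1 was then lower at 24 h than at 0 h, by -0.25 ± 0.06 (adjusted p = 0.005), with libraries that overlapped.

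Maf fell in untreated cells at both times, from 292 to 451 CPM at 0 h to 230 to 274 at 2 h, a change of -0.61 ± 0.05 (adjusted p = 9.93e-14), with -0.34 ± 0.05 at 24 h (adjusted p = 2.10e-06). The 0 h and 24 h libraries overlapped, with means going from 439 to 305 CPM in WT and from 324 to 293 in KO. Spi1 and Cebpd were not called at either time, at 0.08 and 0.01 for Spi1 and -0.19 and -0.17 for Cebpd. The inhibitors Id1 and Id3 rose beside Id2 at 2 h, by 3.76 ± 0.21 and 2.72 ± 0.11 (adjusted p = 3.97e-20 and 2.69e-25). Of the 8 c-MAF targets, 0 were called at 2 h, where Maf fell most. At 24 h, 7 fell, Mrc1 by 0.94 ± 0.08 (adjusted p = 6.60e-14).

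**Figure D4:**
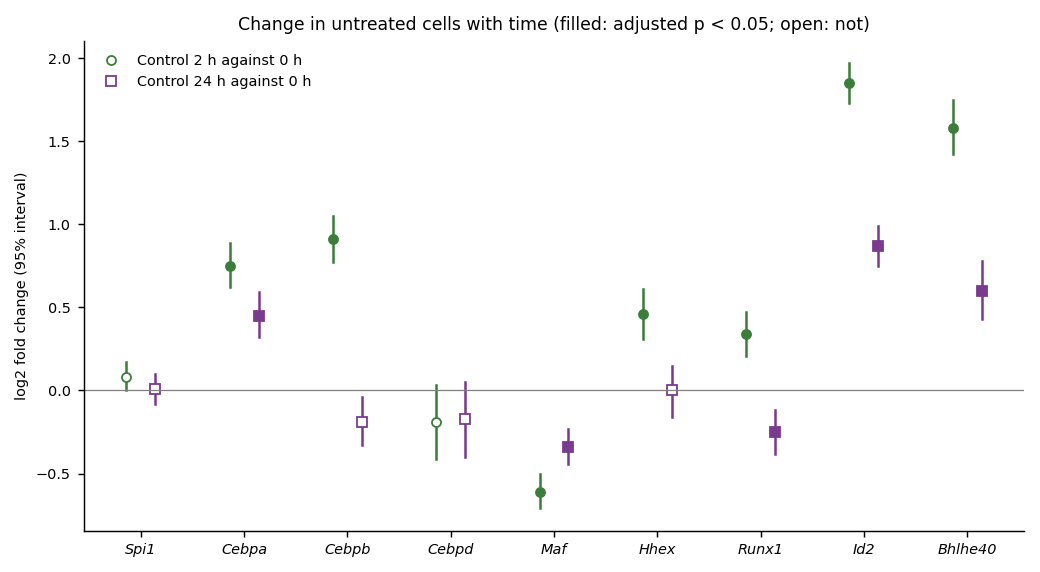
Log2 fold change of each factor in Control cells (vertical axis, 95% interval as line) at 2 h (circles) and 24 h (squares) against Control 0 h, over WT and KO labels, 6 libraries per time, filled where the adjusted p is under 0.05. Id2 and Bhlhe40 are highest, at 1.85 and 1.58 at 2 h, and Maf is lowest, at -0.61.

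Palmitate was compared with the same Controls to see whether a lipid load acts on the factors. None of the 9 was called in any of the 4 comparisons, in which 0.275% (WT) and 0.112% (KO) of all genes were called at 2 h and 0.852% (WT) and 0.877% (KO) at 24 h. At an unadjusted p under 0.05, 5 of the 36 tests passed, and DESeq2 called 2, both in KO at 24 h. The log2 changes ran from -0.40 to 0.16, and no 95% interval reached beyond -0.63 or 0.35. The largest was Bhlhe40 in KO at 24 h, which stood at 68.0, 69.8 and 63.1 CPM in Control and 50.9, 52.9 and 48.7 in palmitate, a change of -0.40 ± 0.12 (adjusted p = 0.103). The groups did not overlap. In WT the values were 54.5, 55.2 and 46.0 against 49.1, 56.1 and 46.4, a change of -0.03 (adjusted p = 0.97). The difference between labels was not called (-0.37, adjusted p = 1).

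Maf at 24 h was -0.27 ± 0.07 in KO (adjusted p = 0.0749) and -0.20 ± 0.07 in WT (adjusted p = 0.293), without overlap in either. Across the 4 palmitate comparisons, 9 of 36 pairs of groups did not overlap, while among all genes 11.2% to 15.0% did not in each. For Cebpb the 95% intervals were -0.21 to 0.17 at 2 h and -0.23 to 0.17 at 24 h in WT, so that a change as large as that with LPS lay outside them. The ratio of Cebpb to Cebpa per kilobase was 1.59 ± 0.127 at 2 h and 1.06 ± 0.0938 at 24 h with palmitate in WT.

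The comparison of labels asked whether the Irf5 genotype sets the level of the factors. At Control 0 h, 2 of 9 were called, both lower in the libraries labelled KO, against 12.5% of all genes. Maf stood at 445, 420 and 451 CPM in WT and at 317, 362 and 292 in KO, a change of -0.44 ± 0.07 (adjusted p = 2.99e-05). Id2 stood at 109, 134 and 117 in WT and at 85.0, 87.0 and 91.9 in KO, a change of -0.45 ± 0.09 (adjusted p = 0.000382). Neither gene overlapped between labels, where 4 of 9 factors and 3259 of the 11624 genes tested did not. Both calls held with each of the 6 libraries left out in turn. Cebpb (0.25, 95% interval 0.06 to 0.45, adjusted p = 0.0815) and Cebpd (0.37, 0.07 to 0.68, adjusted p = 0.102) were above WT without passing. They were called without KO Control 0 h library 2, at 0.34 (adjusted p = 0.0283) and 0.52 (adjusted p = 0.0261).

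Markers of other cells moved with the label at this time. The 9 granulocyte precursor markers summed to 74.2 to 84.0 CPM in KO Control 0 h and 45.9 to 54.0 in WT. Every KO library lay above every WT library for 4 of them (1 called), and 0 markers were at 0 in all 6 libraries. The 6 fibroblast markers summed to 43.3 to 70.0 in KO and 0.517 to 0.883 in WT. Of these, 4 of 6 were higher in every KO library (3 called), with Lum at 0 in all. The 8 macrophage markers, Lyz2 among them, summed to 10600 to 14400 in KO and 14800 to 15300 in WT, with 3 of 8 higher and 3 of 8 lower in every KO library (2 called higher and 4 lower). Lyz2 made up much of this sum, with means of 7170 TMM-scaled CPM in KO and 10200 in WT. Megakaryocyte markers summed to 20.2 to 34.3 in KO and 6.99 to 17.1 in WT (1 of 4 higher in every KO library, 1 called). B cell markers summed to 3.64 to 7.43 in KO and 7.90 to 12.5 in WT (1 of 5 lower, 1 called). The part of these cells in the Maf and Id2 results was not tested. Among the c-MAF targets at this time, C1qa, C1qb, C1qc and Mrc1 were lower and Gas6 and F13a1 higher, Mrc1 by -0.54 ± 0.10 and F13a1 by 1.01 ± 0.13 (adjusted p = 0.000274 and 5.03e-07). Among the 11 ETS genes, 1 was higher and 2 lower, and among the 14 other factors, 0 were higher and 2 lower (Mef2c and Batf3).

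After LPS for 2 h, Id2 was the 1 factor called, against 0.465% of all genes. It stood at 356, 335 and 349 CPM in WT and 280, 241 and 250 in KO, a change of -0.44 ± 0.08 (adjusted p = 0.00168). The groups did not overlap, where 3 of 9 factors and 12.8% of all genes did not. Without the shallow KO library 1 the change was -0.50 (adjusted p = 0.000841). Granulocyte precursor markers summed to 107 to 182 CPM in KO and 39.7 to 59.3 in WT. Of these, 4 of 9 were higher in every KO library (2 called). Fibroblast markers summed to 0.702 to 135 in KO and 0.333 to 0.647 in WT (1 of 6 higher, Dcn and Lum at 0), megakaryocyte markers to 27.6 to 35.5 and 8.99 to 18 (3 of 4 higher), and mast cell or basophil markers to 5.97 to 8.64 and 2.34 to 3.33 (1 of 5 higher). No fibroblast, megakaryocyte, mast cell or basophil marker was called. Macrophage markers summed to 10100 to 10900 in KO and 12900 to 13900 in WT (3 of 8 higher and 1 lower, 1 called each way). Lyz2, the site of the Cre, made up much of this sum, with means of 5310 TMM-scaled CPM in KO and 8860 in WT. The part of these cells in the Id2 result was not tested. In the other 5 conditions none of the 9 was called by edgeR. The shares of all genes called were 0.49% at Control 2 h, 0.146% with palmitate at 2 h, 0.12% at Control 24 h, 0.0688% with palmitate at 24 h and 0.146% with LPS at 24 h. At an unadjusted p under 0.05, the counts of factors in these conditions were 2, 1, 1, 0 and 1. DESeq2 called Maf with palmitate at 2 h and none in the other 4.

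The estimate for Maf was below 0 in 7 of 7 conditions, and edgeR called it at Control 0 h only. It was -0.17 (95% interval -0.32 to -0.02) at Control 2 h, -0.29 (-0.44 to -0.14) with palmitate at 2 h and -0.06 (-0.21 to 0.09) at Control 24 h. With LPS it was -0.16 (-0.32 to 0.00) at 2 h and -0.04 (-0.18 to 0.11) at 24 h. With palmitate at 24 h it was -0.12 (-0.27 to 0.03). Bhlhe40 at Control 24 h stood at 68.0, 69.8 and 63.1 CPM in KO and 54.5, 55.2 and 46.0 in WT, a difference of 0.37 (0.14 to 0.61, adjusted p = 0.473), and with LPS at 24 h the difference was 0.49 (0.16 to 0.81, adjusted p = 0.291). Spi1 had the narrowest intervals. Its differences ran from -0.07 to 0.17 over the 7 conditions, with the last at LPS 2 h (0.04 to 0.29, adjusted p = 0.234).

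**Figure D5:**
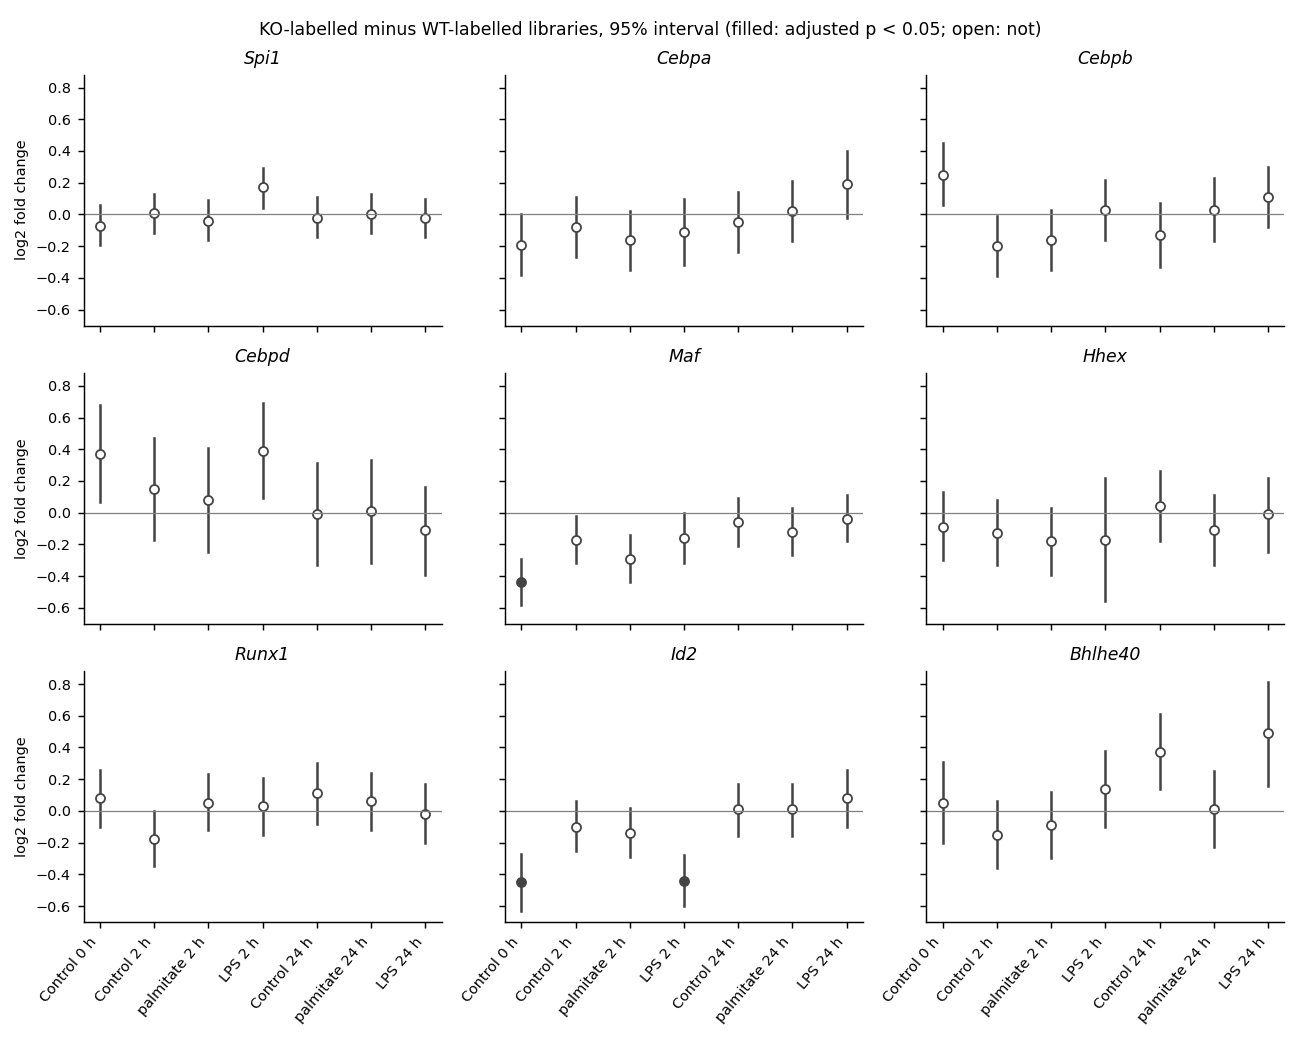
Log2 difference between libraries labelled KO and WT (vertical axes, 95% interval as line) for each factor in the 7 conditions (horizontal axes), filled where the adjusted p is under 0.05. Filled points are Maf at Control 0 h (-0.44) and Id2 at Control 0 h (-0.45) and LPS 2 h (-0.44).

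Whether the label changed the response to treatment was tested by interaction terms. Of 36 such tests, 0 were called by edgeR and 0 by DESeq2, and 2 had an unadjusted p under 0.05 (Id2 with LPS at 2 h and Bhlhe40 with palmitate at 24 h). Among all genes, 0% were called for LPS at 2 h and for palmitate at either time, and 0.0086% for LPS at 24 h. The estimates ran from -0.37 to 0.29. The 95% intervals reached -0.70 for Bhlhe40 with palmitate at 24 h and 0.67 for Cebpd with LPS at 2 h, and for Spi1 they stayed within -0.22 and 0.34. The change in Control with time did differ by label for 3 genes, while 4.77% of all genes were called for 2 h and 1.83% for 24 h. Cebpb rose less in KO by 2 h (-0.46 ± 0.14, adjusted p = 0.0376). By 24 h, Maf fell less in KO (0.38 ± 0.10, adjusted p = 0.0379), from 324 to 293 CPM against 439 to 305 in WT. Id2 rose more in KO (0.45 ± 0.12, adjusted p = 0.0336), from 88.0 to 189 CPM against 120 to 188 in WT. Each of these rests on the same Control 0 h libraries as the differences above. The calls were lost in 8 of 12 (Cebpb), 9 of 12 (Maf) and 10 of 12 (Id2) fits with 1 library left out.

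Across the 14 group means, the factors fell into patterns that other genes shared. Of 7758 genes with a symbol and at least 10 CPM, Bcl3, an NF-κB cofactor, was most like Cebpb (Pearson r = 0.994), followed by Tlr2 (0.983). For Hhex, Rgs2 reached 0.99. Id2 was most like Wwc2 (0.976) and Id3 (0.972), and Cebpa most like Slc26a11 (0.983) and Hdac5 (0.974). Spi1 was closest to Rapgef2 (0.984) and Ifi205 (0.981), and Runx1 to Nr3c1 (0.979), the glucocorticoid receptor gene, and Picalm (0.975). For Cebpd, Rbpj and Slc31a1 both reached 0.967, for Bhlhe40 Camsap2 reached 0.98 and Rassf3 0.979, and for Maf Cd180 reached 0.955 and Snrpd3 0.951. Among the factors themselves, Id2 and Bhlhe40 (0.918) and Spi1 and Cebpd (0.904) were the most alike pairs, and Cebpa and Cebpd the most opposed (-0.927). These correlations describe 14 points that share 4 LPS groups and their Controls.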

How the data were processed

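RNA was measured in 42 libraries of bone marrow-derived macrophages, made with a ribodepleted stranded total RNA kit and sequenced as read pairs. The submitters' processing notes name fastp 0.19.11 and STAR 2.7.3a, and the mouse builds mm10 and mm9. The authors deposited a table of raw counts per Ensembl gene. The annotation release, the strand setting and the handling of multiply mapped reads are not given in the sources used here. Columns name the group only, so libraries are numbered in column order and are not paired. No pair of replicates agreed within sampling noise (chi-square per degree of freedom 1.93 to 9.32).

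Genes were kept by filterByExpr (11624 genes, 99.88% of counts), scaled by TMM (factors 0.875 to 1.06) and tested with edgeR 4.0.16 in R 4.3.3 by the quasi-likelihood F test in a single fit of all 42 libraries. P-values were adjusted by Benjamini-Hochberg over all genes tested within each of the 25 comparisons, and called when under 0.05. The count of tests spans comparisons that share Control libraries. Levels are TMM-scaled CPM, and sums of cell type markers are CPM of the total count. Levels per kilobase used the union of annotated exons. Errors are the SD over libraries or the SE of the log2 fold change, and intervals are 95%. The script was tested on simulated data.

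All 9 factors are named. From related gene lists, at most 4 genes per direction were eligible for naming, those with the smallest adjusted p, a mean of at least 1 CPM and groups that did not overlap, and the other genes named here complete a count. The factors and lists were chosen with earlier results of these data known. Alternatives were DESeq2 1.42.0 (Wald test), its size factors within edgeR, no filter beyond a single count (minimum 1), a separate fit per comparison with its own libraries, each library left out in turn and, for levels, the longest transcript as length. Results of some related genes are not reported here.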

Additional observations from a re-analysis of the deposited data

Results flagged for a closer look

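The response to LPS differed between 24 h and 2 h, by a test of the difference itself, for 5 factors under each label. The differences (log2, 24 h response minus 2 h response) were 0.98 in WT and 0.99 in KO for Maf, 2.11 and 2.10 for Hhex, -1.02 and -0.60 for Id2, and -1.13 and -1.31 for Bhlhe40. Cebpa was called in WT (-0.46) and Runx1 in KO (-0.54). Whether these differences themselves differed between labels was not tested.

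The change in untreated culture differed between labels for Cebpb by 2 h (-0.46, KO minus WT) and for Maf (0.38) and Id2 (0.45) by 24 h.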

How the results depend on the processing

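No called value changed sign under any alternative run. The counts of factors called with LPS stayed at 8 or 9 at 2 h and at 8 at 24 h, with Id2 in WT at 2 h added by the fit of only the libraries compared (adjusted p = 0.0426), and the count for Control 2 h stayed at 7. Leaving out 1 library gave 5 to 6 for Control 24 h and for the KO response to LPS at 24 h against 2 h. With palmitate at 24 h in KO, 2 factors (Maf and Bhlhe40, both lower) were called with all genes of at least 1 count, with only the libraries compared and with DESeq2, against 0. For KO against WT, only the libraries compared gave 1 at Control 2 h (Cebpb) and 1 at Control 24 h (Bhlhe40), and that setting, all genes and DESeq2 gave 1 with palmitate at 2 h (Maf). Cebpb at Control 0 h was called with all genes (adjusted p = 0.0062) and with only the libraries compared (adjusted p = 0.0238). For the label by culture time at 2 h, the same 3 settings gave 2 (Cebpb and Id2) against 1. The cause of these shifts was not tested. Cebpb was also called by all genes and by only the libraries compared for Control 24 h (adjusted p = 0.00452 and 0.00554) and for the label by culture time at 24 h (0.00738 and 0.017).

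With 1 library left out in turn, KO against WT at Control 0 h gave 2 to 4 factors, with 4 without KO Control 0 h library 2. Label by culture time gave 0 to 2 at 2 h and 0 to 2 at 24 h. All 27 calls lost in this way were of Cebpb, Maf or Id2 in those label by culture time tests. No paired analysis was possible because the columns carry no replicate numbers. Counts per library limit Hhex most, at 31 to 49 counts after LPS at 2 h.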
